A study of Mus musculus with 18 samples.

Results

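Cells of gastrulating mouse embryos that carried a wild-type FoxA2 fused to the red fluorescent protein tagRFP, and that had been sorted into the intermediate fluorescence gate (WT Mid), were compared with cells of such embryos sorted into the gate without fluorescence (WT Neg). The members were the 6 libraries that the labels place in these groups, 3 each, of 18 in the series. Every gene of the table other than the read counter's own lines was used, 24498 in all, of which 14711 passed a filter on low values and were tested. The embryos were taken at embryonic day 7.5, were homozygous for the fusion allele on a mixed C57Bl6/J and CD-1 background, and came from superovulated mothers 3 to 5 weeks old. Each sort pooled about 10 embryos that had not been sexed and from which the submitters had cut the extra-embryonic part to genotype them, and 2500 to 5000 cells gave the RNA, of which the equivalent of 1000 cells entered a SMART-Seq2 library. The Mid gate ran from just above autofluorescence up to the strongest signal of heterozygous cells, and the WT High gate held brighter cells. Beside WT High, 2 groups served for comparison, ΔHx Mid and ΔHx Neg, from embryos homozygous for a fused FoxA2 that lacks 10 amino acids of an α-helix. Because the gates were set on the fusion protein itself, each gate can hold a mixture of cell types, and in such bulk libraries a smaller number of cells of a type and less RNA per cell cannot be told apart.

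FoxA2 is a forkhead transcription factor that can bind its sites in closed chromatin and opens the regulatory regions of endoderm genes. At this stage it is known from the visceral endoderm, an absorptive and secretory epithelium that feeds the embryo and secretes many proteins later made by the liver, and from the anterior primitive streak and the tissues that arise there, the definitive endoderm, the node and the notochord. The other cells of the embryo at this stage are epiblast, posterior streak and mesoderm, including the precursors of heart, blood and vessels.

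Reads assigned to genes numbered 12302196 to 16799783 per library, and 16252 to 17176 genes had at least 1. Values are normalised read counts, that is gene reads divided by 1 size factor per library, and 1 read was worth 0.872 to 1.37. Changes are WT Mid minus WT Neg on the log2(value + 1) scale, on which the change of a low gene is understated, and a gene was called at a limma p-value, adjusted by Benjamini-Hochberg over the 14711 genes, under 0.05. Foxa2 (chr2:148042877-148046969, mm10) checked the gates, since the cells were sorted on its product: it had 871, 812 and 621 in the WT Mid libraries, against 40.6, 20.3 and 23.6 in the WT Neg libraries. The mean was 27.3-fold higher in WT Mid, the change was 4.77 ± 0.28 (SE), limma adjusted p = 3.7e-10, and the groups did not overlap. The ribosomal RNA precursor Rn45s held 28.6% to 44.0% of the reads in WT Mid libraries and 23.7% to 32.1% in WT Neg libraries. WT Mid replicate 1 stood apart from the other 2 libraries of its gate. Among the 50 genes with the widest range within WT Mid and a mean of at least 200, 41 were highest in that library, and 65 of all genes with that mean ranged over more than 2 log2 units in WT Mid against 12 in WT Neg. Where leaving out 1 library, this or another, moved a called change of a gene named below by over 1.5-fold, the change without that library is given as well.

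In WT Mid, 2567 genes were higher and 2267 lower than in WT Neg, or 32.9% of the genes tested (17.4% higher and 15.4% lower). The list counts given below stand beside these shares. The libraries of the groups did not overlap for 44.6% of the tested genes. Increases were larger than decreases: the median change of called genes was 1.23 log2 units among the higher and 0.587 in size among the lower, and 391 genes were higher by over 3 log2 units while 109 were lower by that much. The median over all tested genes was -0.0018. Rescaling the libraries to equal totals with Rn45s included moved that median to -0.165 and the split to 1890 higher and 2874 lower genes. With Rn45s left out of those totals the median was 0.021, and 2643 genes were higher and 2111 lower. The labels call the libraries biological replicates. The p-values rest on a spread between replicate libraries that is shared over all 6 groups, not on that of WT Mid and WT Neg alone. With those 2 groups fitted alone, 2243 genes were higher and 1909 lower.

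The 12 largest increases among well-expressed, non-overlapping genes were led by Srgn, the core protein of a secretory-granule proteoglycan, which had 6577, 854 and 1149.8 in the WT Mid libraries, against 4.93, 17.2 and 7.25 in the WT Neg libraries. All WT Mid libraries lay far above all WT Neg libraries, with replicate 1 the highest; the change was 7.60 ± 0.65 (SE), limma adjusted p = 5.4e-08, and 6.69 without that library. Habp2, a secreted serine protease that binds hyaluronan, had 290.4, 267 and 295 in the WT Mid libraries, against 0, 6.08 and 1.81 in the WT Neg libraries, with a change of 6.72 ± 0.60 (SE), limma adjusted p = 9.4e-08. Here the 3 WT Mid libraries were close to each other. Slc6a2, the noradrenaline transporter, had 482, 165 and 160.4 in the WT Mid libraries, against 2.46, 4.06 and 0 in the WT Neg libraries, with a change of 6.50 ± 0.76 (SE), limma adjusted p = 2.6e-06. The rest of the set were the aldo-keto reductase Akr1c13 (6.61 ± 0.47), the pepsinogen Pga5 (6.11 ± 0.53), the proteoglycan Spock1 (6.10 ± 0.67), the ciliary and sperm-tail protein Enkur (5.98 ± 0.61), the protease inhibitor Serpinb6c (5.92 ± 0.70), the glycoprotein Tpbgl (5.82 ± 1.02), the water channel Aqp8 (5.82 ± 0.72), the cytochrome Cyp3a13 (5.81 ± 0.93) and the haem carrier Hpx (5.78 ± 0.71). Cyp3a13 had no read in WT Neg and was at least 19.1-fold higher in WT Mid, taking 3 reads per library as the floor. Akr1c13, Serpinb6c and Pga5 belong to families of closely similar genes, so reads may have been shared among copies. Spock1 (5.29), Tpbgl (5.09) and Aqp8 (5.20) changed less without WT Mid replicate 1, while Tpbgl was at 6.41 without WT Mid replicate 2. Enkur was at 7.13 and Habp2 at 6.00 without WT Neg replicate 1, and Habp2 at 7.41 and Serpinb6c at 6.79 without WT Neg replicate 2. Akr1c13 (5.98), Slc6a2 (5.81) and Spock1 (6.84) were at these values without WT Neg replicate 3. All of them stayed called.

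The 12 largest decreases, taken by the same rule of expression and no overlap, were led by a globin and a mesoderm regulator. Hbb-bh1, an embryonic β-type globin (chr7:103841637-103843164), had 0 reads in every WT Mid library, against 111, 951 and 125 in the WT Neg libraries, which put it at least 124-fold higher in WT Neg; the change was -7.89 ± 0.85 (SE), limma adjusted p = 1e-06. The bound and the change rest on WT Neg replicate 2, without which they were 36.9-fold and -6.89. Other β-type globins resemble it closely. Hand1, a bHLH factor of extraembryonic and cardiac mesoderm, had 4.11, 14.3 and 29.6 in the WT Mid libraries, against 1288, 1593 and 1622 in the WT Neg libraries, with a change of -6.80 ± 0.74 (SE), limma adjusted p = 1.2e-06. No WT Mid library came near the WT Neg level of either gene. Also in this set were the tryptophan-degrading enzyme Tdo2 (-6.27 ± 0.65), the T-box gene Tbx4 (-5.72 ± 0.61), the forkhead gene Foxf1 (-5.48 ± 0.85), the fibrillar collagen Col1a1 (-5.18 ± 0.97), the caveolar protein Sdpr (-5.07 ± 0.81), the blood regulators Gfi1b (-4.94 ± 0.70) and Tal1 (-4.93 ± 0.63), the endothelial adhesion molecule Pecam1 (-4.84 ± 0.77), the placental hormone gene Prl3d1 (-4.86 ± 0.80) and Hoxd9 (-4.76 ± 0.79). Prl3d1 had 0 reads in WT Mid, against 18.5, 53.7 and 21.7 in WT Neg, and was called by limma (adjusted p = 0.00012) but not by DESeq2 (adjusted p = 0.19). Col1a1 was at -3.61, -5.87 and -6.05 with WT Mid replicates 1, 2 and 3 left out in turn. Foxf1 was at -6.29 and -4.36 and Hoxd9 at -4.12 and -5.59 without WT Mid replicates 1 and 2 in turn. Hand1 was at -6.11 without WT Mid replicate 1 and at -7.40 without replicate 3 of that gate, and Gfi1b at -4.30 without WT Neg replicate 2.

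**Figure D1:**
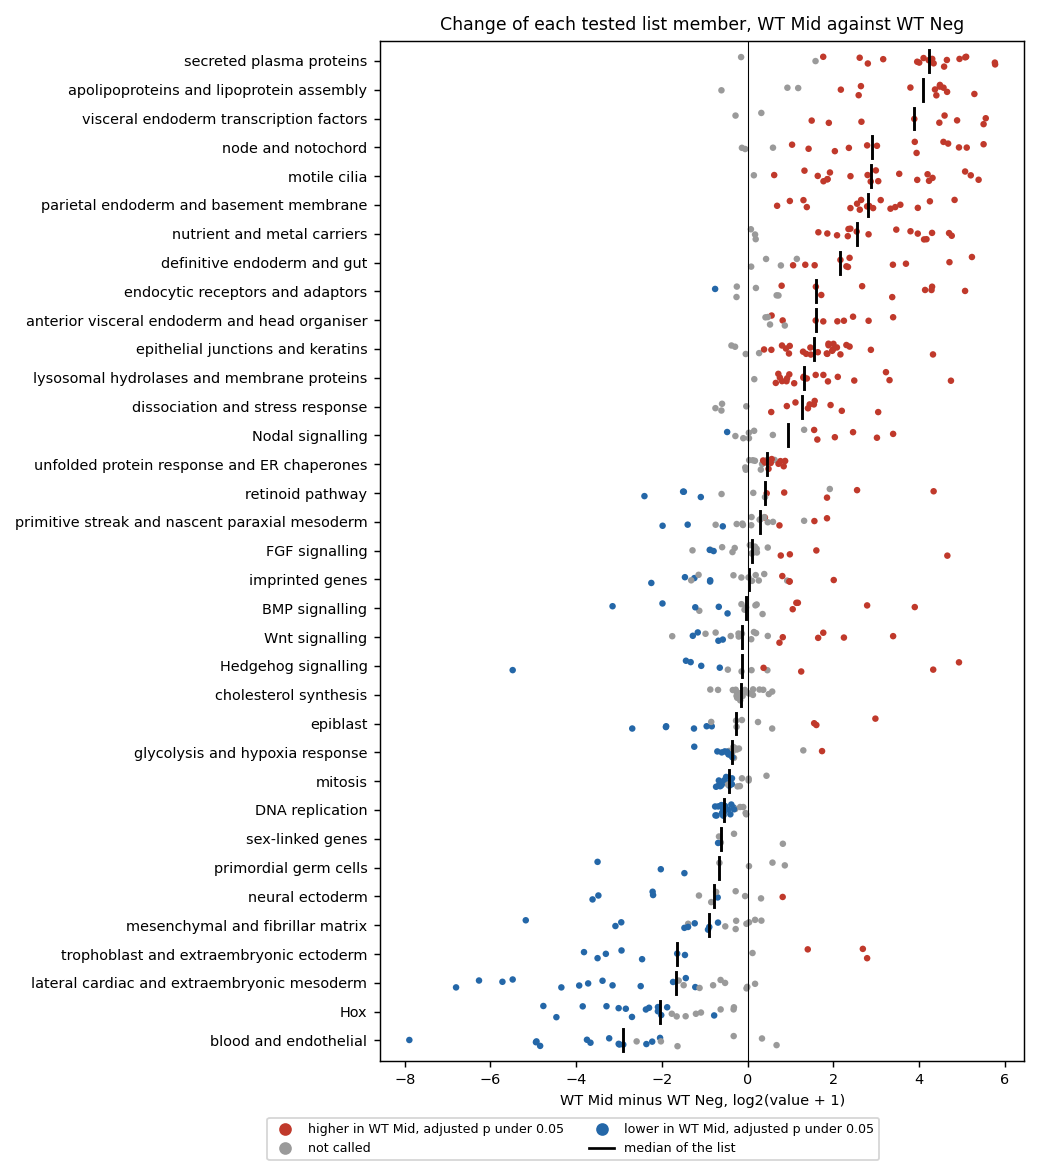
Each point is 1 tested gene of a list, placed by its change in WT Mid against WT Neg on the log2(value + 1) scale, with lists ordered by their median (black bar). Visceral endoderm and plasma protein lists lie at the top, with medians from 3.89 to 4.23, and blood and endothelial genes at the bottom, with a median of -2.90.

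Visceral endoderm transcription factors were higher in WT Mid. Of 15 listed genes 11 were tested, of which 9 rose and 0 fell, with a median change of 3.89; with no filter 15 were tested and 1 fell. Hnf4a, the nuclear receptor that drives liver-type genes in visceral endoderm, had 586, 584 and 451 in the WT Mid libraries, against 12.3, 11.2 and 8.15 in the WT Neg libraries, with a change of 5.56 ± 0.67 (SE), limma adjusted p = 3.9e-06. Foxa1, the closest relative of FoxA2, had 373, 311 and 176 in the WT Mid libraries, against 18.5, 2.03 and 2.72 in the WT Neg libraries, with a change of 5.51 ± 0.53 (SE), limma adjusted p = 2.3e-07. Its change was 6.35 without WT Neg replicate 1. For both genes the lowest WT Mid library was more than 9 times the highest WT Neg library. The third FoxA gene, Foxa3, changed by 4.60 ± 0.31, the liver and gut regulator Creb3l3 by 4.48 ± 0.43 and Sox17, a regulator of endoderm, by 3.89 ± 0.18. Gata4 rose less, by 1.50 ± 0.32, with 3391, 1114 and 1454 in WT Mid and 539, 596 and 757 in WT Neg. Gata6 and Prox1 did not pass the test, at 0.32 and -0.28. Sox7, which is known from parietal endoderm and vessels, had 1478, 194 and 388 in WT Mid and 83.8, 168 and 150.4 in WT Neg, and its change was 1.90 ± 0.70 (SE), limma adjusted p = 0.043. Without WT Mid replicate 1 the change was 1.09 and the adjusted p 0.26, without WT Mid replicate 2 the change was 2.55, and the call was also lost without WT Mid replicate 3 (0.052) or without any 1 of the WT Neg libraries (0.063 to 0.145).

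The windows from 250 bases before to 50 after the start of Afp, Apob and Foxa1 are shown because forkhead factors are known to act at liver-type promoters and these genes rose together with Foxa2 (RefSeq, GRCm38.p6). Capitals mark matches, on either strand, to the forkhead form TGTTTAC, to a common variant of it written TATTTAC, or to another variant written TGTTTGC.
Afp (chr5:90490464-90490763, plus strand): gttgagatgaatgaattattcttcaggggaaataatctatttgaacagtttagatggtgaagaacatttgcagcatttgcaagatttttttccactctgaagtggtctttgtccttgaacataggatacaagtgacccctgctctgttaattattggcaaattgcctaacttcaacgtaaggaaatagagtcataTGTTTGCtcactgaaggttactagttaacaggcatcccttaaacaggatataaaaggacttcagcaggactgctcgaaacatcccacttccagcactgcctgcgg
Apob (chr12:7977427-7977726, plus strand): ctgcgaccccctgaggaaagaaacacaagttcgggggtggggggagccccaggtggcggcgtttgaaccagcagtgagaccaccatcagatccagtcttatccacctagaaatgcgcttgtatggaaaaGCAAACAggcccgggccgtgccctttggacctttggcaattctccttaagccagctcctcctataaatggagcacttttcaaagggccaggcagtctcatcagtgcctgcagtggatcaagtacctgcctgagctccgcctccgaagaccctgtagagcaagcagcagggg
Foxa1 (chr12:57546062-57546361, minus strand): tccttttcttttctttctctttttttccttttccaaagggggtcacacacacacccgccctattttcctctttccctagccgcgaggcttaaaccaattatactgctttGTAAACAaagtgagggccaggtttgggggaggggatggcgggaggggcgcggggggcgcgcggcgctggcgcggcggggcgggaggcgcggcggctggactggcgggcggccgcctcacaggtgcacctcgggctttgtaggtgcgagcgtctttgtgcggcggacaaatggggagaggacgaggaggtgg
Each window held 1 match, but these 3 genes were picked from many that rose and do not stand for the others. It was TGTTTGC in Afp, and GCAAACA in Apob and GTAAACA in Foxa1, both read on the opposite strand. Any of the 3 forkhead forms occurred in 11.2% of the windows of 22862 genes with a single window, in 7.34% of the 8911 tested genes among them, and in 15.9% of the 258 that were higher in WT Mid by over 3 log2 units. The share was 7.39% among all 1556 called higher and 7.53% among the 1407 called lower. These shares describe letters in a short window, were not tested, and do not show where a factor bound.

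Genes of lipoprotein particles rose strongly. Of 18 listed 14 were tested, of which 11 rose and 0 fell (median 4.09), with 1 fall without WT Mid replicate 3. Apob, the structural protein of secreted lipoproteins, had 5573, 7148 and 6425 in the WT Mid libraries, against 165, 160.2 and 158 in the WT Neg libraries, with a change of 5.29 ± 0.45 (SE), limma adjusted p = 5.8e-08. Apoa1, the main protein of high-density lipoprotein, had 8024, 8856 and 7831 in the WT Mid libraries, against 313, 372 and 295 in the WT Neg libraries, with a change of 4.66 ± 0.36 (SE), limma adjusted p = 1.3e-08. Both were tightly grouped within each gate and did not overlap between gates. Apoa4 (4.57 ± 0.57) and Apoa5 (4.49 ± 0.92), further apolipoproteins, and Soat2 (4.49 ± 0.39), which esterifies cholesterol, rose as well; Apoa5 was at 3.86 without WT Neg replicate 1 and 5.27 without WT Neg replicate 2. Mttp, which loads lipid onto Apob, changed by 3.80 ± 0.23. Apoe was the most abundant of the list by normalised count, with 25177, 31382 and 28403 in the WT Mid libraries, against 4047, 4651 and 4862 in the WT Neg libraries, and rose by 2.65 ± 0.18. Lcat and Tm6sf2 did not pass the test, with Lcat at 21.9, 28.7 and 12.2 in WT Mid and 13.5, 11.2 and 6.34 in WT Neg.

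Secreted plasma proteins had the highest median of all 35 lists, 4.23. Of 24 listed 19 were tested, of which 17 rose and 0 fell. Ttr, the thyroid hormone carrier, had 4894, 6199 and 5659 in the WT Mid libraries, against 155, 167 and 168 in the WT Neg libraries, with a change of 5.08 ± 0.39 (SE), limma adjusted p = 1.4e-08. Afp, the fetal counterpart of albumin, had 2961, 3745 and 3567 in the WT Mid libraries, against 143, 135 and 145 in the WT Neg libraries, with a change of 4.59 ± 0.47 (SE), limma adjusted p = 4.8e-07. Rbp4, which carries retinol, had 3815, 4899.9 and 5975 in the WT Mid libraries, against 185, 248 and 288 in the WT Neg libraries, with a change of 4.34 ± 0.38 (SE), limma adjusted p = 6.7e-08. All 3 genes were also detected in every WT Neg library, at levels far below any WT Mid library. The adhesion protein Vtn (5.77 ± 0.79), the protease inhibitor precursor Ambp (5.10 ± 0.51) and fibrinogen β, Fgb (4.95 ± 0.69), rose as well. Vtn was at 7.20, Ambp at 5.76 and Fgb at 4.16 without WT Neg replicate 1, Vtn at 5.06 without either of the other two, and Ambp at 4.36 without WT Neg replicate 3. Alb, the albumin gene, had 0 reads in all 6 libraries. C3 and Ahsg did not pass the test (-0.15 and 1.59).

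**Figure D2:**
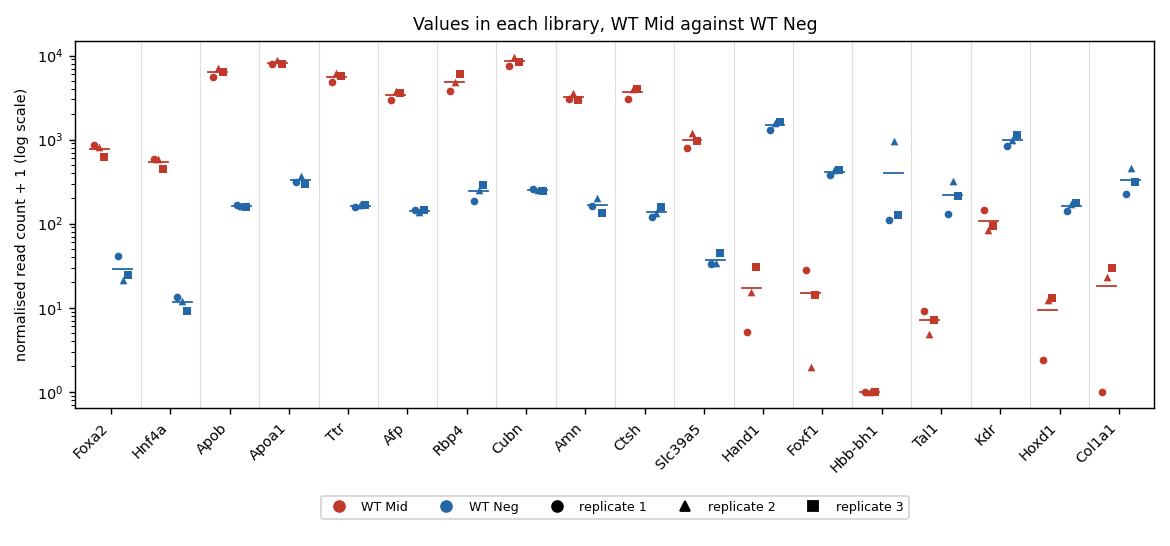
Normalised read counts plus 1 (log axis) of 18 genes in each library, WT Mid left and WT Neg right, with bars at the group means and a symbol per replicate. The 11 genes on the left lie higher in every WT Mid library, the 7 on the right lie lower, and no gene shown overlaps between the gates. Some were named by a rule that required this, and 44.6% of all tested genes did not overlap.

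The machinery by which visceral endoderm takes up maternal protein was higher as well. Of 15 tested endocytic receptors and adaptors 9 rose and 1 fell (median 1.59, 16 listed); 2 fell with equal totals and without WT Mid replicate 3. Cubn, the receptor for vitamin B12 with intrinsic factor and for albumin, had 7595, 9489 and 8437 in the WT Mid libraries, against 259, 247 and 245 in the WT Neg libraries, with a change of 5.08 ± 0.41 (SE), limma adjusted p = 2.6e-08. Amn, its membrane anchor, had 3069, 3581 and 2976 in the WT Mid libraries, against 160.1, 203 and 131 in the WT Neg libraries, with a change of 4.29 ± 0.40 (SE), limma adjusted p = 1.4e-07. Folate receptor Folr1 (4.31 ± 0.36), the motor Myo6 (4.14 ± 0.30) and the clathrin adaptor Dab2 (3.38 ± 0.29) rose with them. Lrp2, the large receptor that partners Cubn, had 1518, 1201 and 1451 in the WT Mid libraries, against 789.5, 1012 and 805 in the WT Neg libraries, and did not pass the test (0.68, adjusted p = 0.075). The transferrin receptor Tfrc was the 1 gene that fell, with 1817, 2002 and 2741 in the WT Mid libraries, against 3754, 3429 and 3737 in the WT Neg libraries and a change of -0.76 ± 0.13 (SE), limma adjusted p = 0.00025.

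Lysosomal genes rose in 19 of 20 tested members with 0 falls (median 1.31). Ctsh, a cathepsin protease, had 3041, 3980.1 and 3994 in the WT Mid libraries, against 118, 133 and 156 in the WT Neg libraries, with a change of 4.75 ± 0.29 (SE), limma adjusted p = 6.4e-10. The proteases Lgmn (3.31 ± 0.19), Ctsc (3.23 ± 0.15), Ctsl (2.49 ± 0.16) and Ctsb (2.11 ± 0.09) followed, and the lysosomal membrane protein Lamp1 rose by 0.80 ± 0.09. Among nutrient and metal carriers 16 of 19 tested genes rose and 0 fell (median 2.55, 20 listed). The zinc importer Slc39a5 had 792, 1182 and 952 in the WT Mid libraries, against 32, 33.5 and 43.5 in the WT Neg libraries, with a change of 4.70 ± 0.34 (SE), limma adjusted p = 6e-09. The phosphate carrier Slc34a2 (4.77 ± 0.49), the amino acid carriers Slc7a9 (4.31 ± 0.58) and Slc7a8 (4.12 ± 0.37) and the glucose carrier Slc2a2 (4.18 ± 0.84) rose as well. Slc2a2 was at 4.78 without WT Mid replicate 1 and 3.53 without WT Neg replicate 1. Slc34a2 was at 5.39 without WT Neg replicate 1 and 4.13 without WT Neg replicate 2. The neuronal-type glucose carrier Slc2a3 had 24962, 43948 and 55195 in the WT Mid libraries, against 9827, 10882 and 11796 in the WT Neg libraries and rose by 1.86 ± 0.20, while Slc2a1, the broadly used glucose carrier, had 8584, 17756 and 23086 in WT Mid and 13380.0, 14401 and 15523 in WT Neg, overlapping.

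Parietal endoderm and basement membrane genes were higher in all WT Mid libraries and highest in 1 of them. Parietal endoderm is the layer that lays down the thick basement membrane around the conceptus; the labels do not mention it. All 18 listed genes were tested and 18 rose (median 2.81), and 15 of the 18 were highest in WT Mid replicate 1. In a model of the compared groups alone 16 of the 18 were called higher. The SEs and p-values given here use the spread shared over all groups, while the WT Mid libraries themselves varied widely in these genes. Nid1, which links laminin to collagen IV (chr13:13437551-13512269), had 16229, 2245 and 3437 in the WT Mid libraries, against 153, 186 and 188 in the WT Neg libraries, with a change of 4.83 ± 0.45 (SE), limma adjusted p = 1.7e-07. Col4a1, a collagen IV chain, had 68389, 12276 and 21480.2 in the WT Mid libraries, against 2344, 2373 and 2500.0 in the WT Neg libraries, with a change of 3.45 ± 0.36 (SE), limma adjusted p = 6e-07. Its partner Col4a2 had 32599.9, 6428 and 9378 in the WT Mid libraries, against 1025, 1170.1 and 985 in the WT Neg libraries, with a change of 3.57 ± 0.36 (SE), limma adjusted p = 4.5e-07. In all 3 genes WT Mid replicate 1 was several times the other WT Mid libraries, which in turn lay above every WT Neg library. None of the 18 genes overlapped between the gates, while 44.6% of all tested genes did not overlap. The laminin chain Lama1 changed by 3.97 ± 0.44, the thrombin receptor Thbd by 4.26 ± 0.90, and the retinol receptor Stra6 by 2.56 ± 0.32. Summed over the list, values were 59388 to 314378 in WT Mid and 18736 to 20197 in WT Neg. Without replicate 1, 17 of the 18 genes remained higher with a median of 2.31, with Nid1 at 3.98, Col4a1 at 2.76, Col4a2 at 2.88, Lama1 at 3.14 and Thbd at 3.51; the collagen hydroxylase P4ha2 changed by 1.44 without replicate 1 and by 2.40 with it. Lama1 was at 4.59 and P4ha2 at 3.11 without WT Mid replicate 2.

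Col4a1 and Col4a2 lie head to head, and their start windows are shown because both genes rose together in every WT Mid library. Capitals mark the 78 bases that the windows share on opposite strands.
Col4a1 (chr8:11312777-11313076, minus strand): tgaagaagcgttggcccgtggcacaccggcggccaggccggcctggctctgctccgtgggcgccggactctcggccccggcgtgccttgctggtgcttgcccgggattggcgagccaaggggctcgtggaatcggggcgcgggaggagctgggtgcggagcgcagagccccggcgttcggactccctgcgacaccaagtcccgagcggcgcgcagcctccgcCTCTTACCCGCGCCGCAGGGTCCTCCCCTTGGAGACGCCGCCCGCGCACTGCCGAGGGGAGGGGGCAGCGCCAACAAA
Col4a2 (chr8:11312555-11312854, plus strand): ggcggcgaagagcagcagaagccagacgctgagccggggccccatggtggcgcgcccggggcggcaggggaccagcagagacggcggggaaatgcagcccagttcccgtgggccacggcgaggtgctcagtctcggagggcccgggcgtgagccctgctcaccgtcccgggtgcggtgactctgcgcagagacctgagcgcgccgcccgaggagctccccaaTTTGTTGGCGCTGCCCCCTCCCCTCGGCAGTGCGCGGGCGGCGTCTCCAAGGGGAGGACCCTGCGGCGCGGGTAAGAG
Neither window held a match to the forkhead letters.

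**Figure D3:**
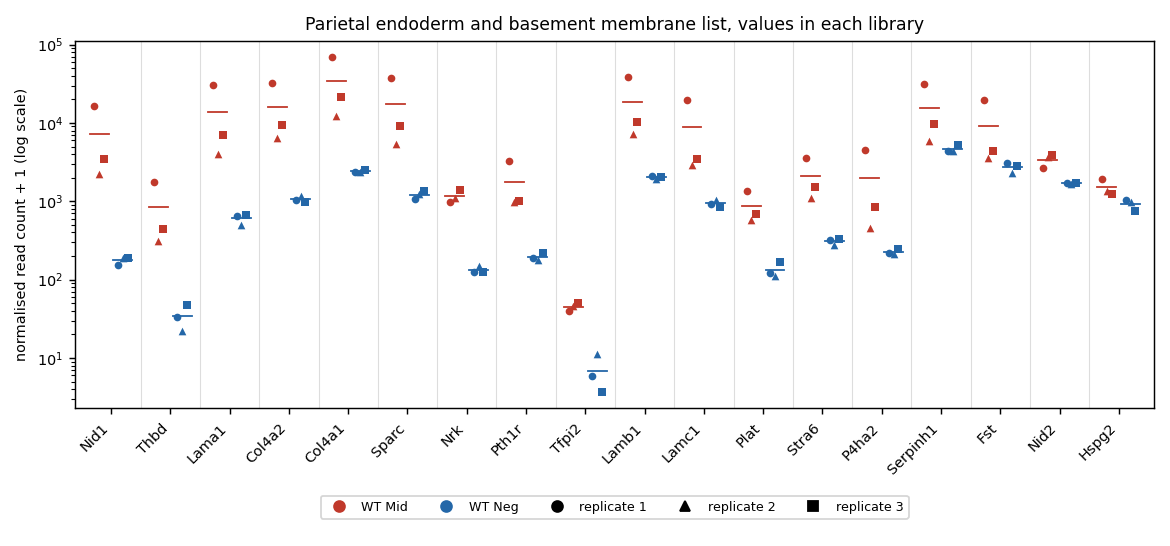
Normalised read counts plus 1 (log axis) of the 18 genes of the parietal endoderm and basement membrane list in each library, WT Mid left and WT Neg right, with bars at the means. WT Mid replicate 1 (circles) is the highest of its gate in 15 genes.

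Genes of the anterior visceral endoderm, which patterns the head, and of the head organiser stood on a single list. They were higher too, as were genes of definitive endoderm. The first list does not tell its tissues apart. Of 13 tested genes of the first list 9 rose and 0 fell (median 1.59). Cer1, a secreted inhibitor of Nodal, BMP and Wnt, had 3535, 2626 and 2772 in the WT Mid libraries, against 381, 233 and 245 in the WT Neg libraries, with a change of 3.40 ± 0.22 (SE), limma adjusted p = 1.3e-09. The homeobox gene Gsc had 333, 391 and 142 in the WT Mid libraries, against 28.3, 38.5 and 44.4 in the WT Neg libraries (2.82 ± 0.52), Lhx1 changed by 2.10 ± 0.26, the Wnt inhibitor Dkk1 by 1.77 ± 0.21, the Nodal inhibitor Lefty1 by 2.46 ± 0.46 and Hhex, an early endoderm homeobox gene, by 1.59 ± 0.22. Of 18 definitive endoderm and gut genes 15 were tested, of which 11 rose and 0 fell (median 2.17); with no filter 18 were tested and 1 fell. Spink1, a trypsin inhibitor, had 7001, 7799.8 and 5555 in the WT Mid libraries, against 240.2, 137 and 169 in the WT Neg libraries, with a change of 5.24 ± 0.38 (SE), limma adjusted p = 6.2e-09. Trh, the thyrotropin-releasing hormone gene, had 3909.9, 5532 and 6203 in the WT Mid libraries, against 477, 537 and 450.2 in the WT Neg libraries, with a change of 3.39 ± 0.16 (SE), limma adjusted p = 2.9e-11. The protease genes Tmprss2 (4.71 ± 0.26) and Cpm (3.70 ± 0.33) and the tight junction gene Cldn6 (2.38 ± 0.14) also rose. Nkx2-1, Nkx2-3 and Pyy, which mark later gut regions, did not pass the filter.

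Node and notochord genes and genes of motile cilia, which node cells carry, were present in WT Mid above WT Neg and higher still in the brightest gate. Of 16 tested node and notochord genes (18 listed, of which 17 in the table) 13 rose and 0 fell (median 2.91). The largest rise on this list was that of Foxa1, which was also counted among the visceral endoderm factors. Noto, a homeobox gene of the node, had 119, 169 and 266 in the WT Mid libraries, against 16, 3.04 and 0.906 in the WT Neg libraries, with a change of 5.12 ± 0.59 (SE), limma adjusted p = 2.5e-06. Shh, the signal of the notochord, had 30.1, 44.9 and 142 in the WT Mid libraries, against 6.16, 0 and 0 in the WT Neg libraries, with a change of 4.93 ± 0.62 (SE), limma adjusted p = 6.9e-06. Foxj1, the regulator of motile cilia, had 744, 518 and 655 in the WT Mid libraries, against 71.4, 8.11 and 21.7 in the WT Neg libraries, with a change of 4.68 ± 0.47 (SE), limma adjusted p = 4e-07. In all 3 the gates did not overlap; WT Mid replicate 3 had the most Noto and Shh, and WT Neg replicate 1 had the most of each gene in its gate. The BMP inhibitor Chrd changed by 3.90 ± 0.34 and Nodal by 3.02 ± 0.20. The BMP inhibitor Nog had 732, 114 and 151 in the WT Mid libraries, against 37, 28.4 and 33.5 in the WT Neg libraries; its change was 2.79, and 1.97 without replicate 1. T, the notochord and streak gene Brachyury, did not pass the test (0.59, adjusted p = 0.078). Of 21 tested cilia genes 20 rose and 0 fell (median 2.87). The adenylate kinase Ak7 had 28.8, 44.9 and 53.2 in WT Mid and 0 in every WT Neg library, at least 13.4-fold higher. Dynlrb2 (5.21 ± 0.43) and Cfap126 (4.32 ± 0.55), a dynein light chain and an axonemal protein, and the radial spoke gene Rsph4a (5.08 ± 0.53) rose as well. Noto was at 5.99, Shh at 5.88 and Foxj1 at 5.46 without WT Neg replicate 1. Foxj1 was at 3.96 and Cfap126 at 3.49 without WT Neg replicate 2, Noto at 4.41 without WT Neg replicate 3 and Shh at 4.29 without WT Mid replicate 3.

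WT High was set against WT Mid to place these genes among the 3 gates; the comparison uses the same WT Mid libraries. Between these gates 24.4% of the tested genes were called, 12.1% higher and 12.4% lower in WT High. The split of 1774 higher and 1819 lower genes became 1870 and 983 when libraries were rescaled to equal totals, and 2163 and 1389 when Rn45s was left out of those totals. Of 16 node and notochord genes 15 were higher in WT High and 0 lower, and of 21 cilia genes 21 were higher. Shh had 2461, 1809 and 3893 in the WT High libraries, against 30.1, 44.9 and 142 in the WT Mid libraries (High minus Mid 5.46 ± 0.62 (SE), limma adjusted p = 3.8e-06). Foxj1 had 6367, 3824 and 5177 in WT High and 744, 518 and 655 in WT Mid (2.99 ± 0.47 (SE), limma adjusted p = 0.00011). Other lists ran the other way: 10 of 19 tested plasma protein genes (with 1 higher), 10 of 14 apolipoprotein genes and 15 of 18 parietal and basement membrane genes were lower in WT High. Of 11 visceral endoderm transcription factors 5 were lower and 2 higher, and of 13 anterior visceral endoderm and head organiser genes 0 were lower and 6 higher. Apob had 891, 1628 and 844 in WT High and 5573, 7148 and 6425 in WT Mid (-2.57 ± 0.45 (SE), limma adjusted p = 0.00035), so that WT Mid was the highest of the 3 gates. Col4a1 had 3214, 4851 and 4137 in WT High and 68389, 12276 and 21480.2 in WT Mid (-2.71 ± 0.36 (SE), limma adjusted p = 1.8e-05), and every WT Mid library was above every WT High library. Of the 2567 genes higher in WT Mid than in WT Neg, 490 were higher again in WT High, 672 were lower in WT High than in WT Mid and 1405 were not called between them. By the naming rule the largest increases in WT High were Htra3 (6.05), Shh, Ccdc153 (5.23), Myh13 (5.01), Megf10 (4.93) and Kirrel3 (4.88). The largest decreases were Aqp8 (-8.48), Slc6a2 (-6.98), Ripply2 (-6.85), Slc2a2 (-6.82), Sox7 (-6.29) and Wfdc1 (-6.18). Several of these differences moved without WT Mid replicate 1: Htra3 was then at 5.43, Kirrel3 at 4.27, Aqp8 at -7.86, Slc2a2 at -7.42, Sox7 at -5.48, Wfdc1 at -5.49 and Col4a1 at -2.02. Shh was at 6.10 without WT Mid replicate 3, and Sox7 at -6.95 and Wfdc1 at -6.77 without WT Mid replicate 2. Leaving out WT High replicate 1 put Myh13 at 4.38 and Ripply2 at -7.92, leaving out replicate 2 of that gate put Slc2a2 at -7.42 and Sox7 at -7.08, and leaving out its replicate 3 put Slc2a2 at -6.08. Foxd4, a forkhead gene, had 46.8, 52.7 and 67 in WT Neg, 52.1, 58.3 and 132 in WT Mid and 1605, 1187 and 1895 in WT High.

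**Figure D4:**
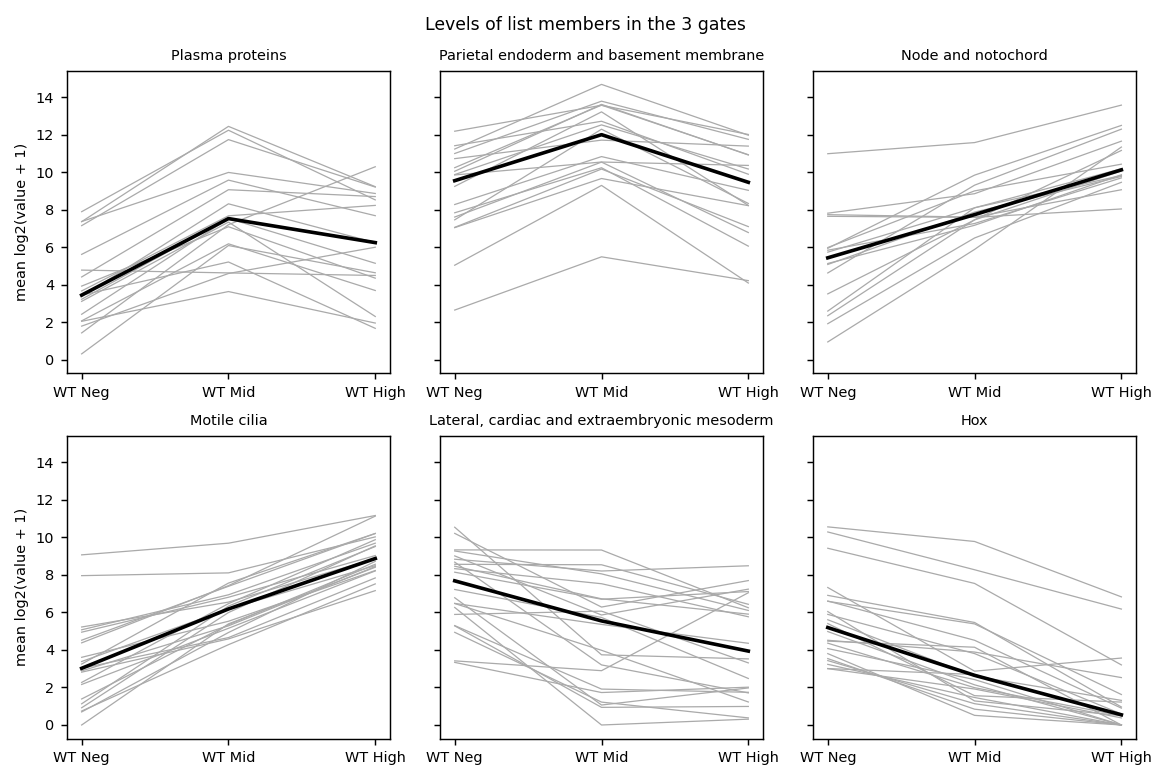
Mean log2(value + 1) of each tested list member (grey) and the list's median (black) in the WT Neg, WT Mid and WT High gates. Plasma protein and parietal lists peak in WT Mid, node and cilia lists increase over the gates, and the mesoderm and Hox lists decrease.

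The balance between epithelial and mesenchymal genes differed between the gates. Of 28 tested genes of epithelial junctions and keratins 24 rose and 0 fell (median 1.56). Vil1, a microvillus protein, had 904, 1274 and 1082 in the WT Mid libraries, against 59.1, 48.7 and 50.7 in the WT Neg libraries, with a change of 4.33 ± 0.43 (SE), limma adjusted p = 3.6e-07. The keratins Krt7 (2.88 ± 0.19), Krt19 (2.31 ± 0.24), Krt8 (1.89 ± 0.12) and Krt18 (1.97 ± 0.13) all rose. E-cadherin, Cdh1, was present in both gates, with 3774, 5287 and 5467 in the WT Mid libraries, against 2779, 2405 and 2529.9 in the WT Neg libraries, and rose by 0.90 ± 0.11. Of 17 tested mesenchymal and fibrillar matrix genes (18 listed) 9 fell and 0 rose (median -0.89), and 5 fell without WT Neg replicate 2. Col1a1 had 0, 22 and 28.8 in the WT Mid libraries, against 223, 461 and 311 in the WT Neg libraries, with a change of -5.18 ± 0.97 (SE), limma adjusted p = 0.00042. The mesenchymal regulator Snai2 had 4.11, 6.69 and 25.3 in the WT Mid libraries, against 37, 155 and 105 in the WT Neg libraries, with a change of -3.08 ± 0.67 (SE), limma adjusted p = 0.0015. The intermediate filament Vim had 1679.6, 1033 and 1271 in the WT Mid libraries, against 2902, 3062 and 3225 in the WT Neg libraries, with a change of -1.23 ± 0.13 (SE), limma adjusted p = 6.8e-07. The gates did not overlap for Snai2 or Vim, nor for Col1a1, which had been named by a rule that required this. Col1a1 was at -3.61, -5.87 and -6.05 with WT Mid replicates 1, 2 and 3 left out in turn, and Snai2 at -3.77 without WT Mid replicate 3 and -3.67 without WT Neg replicate 1. Snai1, Twist1, Fn1 and Pdgfra did not pass the test.

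Genes of lateral, cardiac and extraembryonic mesoderm were lower in WT Mid. All 22 were tested; 13 fell and 0 rose (median -1.67). Besides Hand1, Tdo2 and Tbx4, Foxf1, a Hedgehog target of lateral mesoderm, had 27.4, 0.955 and 13.1 in the WT Mid libraries, against 374, 431 and 428 in the WT Neg libraries, with a change of -5.48 ± 0.85 (SE), limma adjusted p = 6.5e-05. The change of Foxf1 was -6.29 without WT Mid replicate 1 and -4.36 without replicate 2 of that gate. Bmp4, the signal that induces posterior mesoderm, had 28.8, 71.6 and 90.7 in the WT Mid libraries, against 489, 541 and 521 in the WT Neg libraries, with a change of -3.15 ± 0.29 (SE), limma adjusted p = 1.3e-07. The myelin protein Pmp22 changed by -3.93 ± 0.21, the troponin Tnnt2 by -4.34 ± 0.78, the cardiac T-box gene Tbx20 by -1.74 ± 0.28 and the second heart field gene Isl1 by -1.44 ± 0.37. WT Mid libraries kept some counts of Bmp4, Pmp22, Tbx20 and Isl1, and their gates did not overlap.

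Of 19 tested blood and endothelial genes 13 fell and 0 rose (median -2.90); without WT Neg replicate 2, 10 fell and 1 rose. Tal1, the master regulator of blood, had 8.22, 3.82 and 6.10 in the WT Mid libraries, against 128, 318 and 214 in the WT Neg libraries, with a change of -4.93 ± 0.63 (SE), limma adjusted p = 8.5e-06. Etv2, needed for both blood and vessels, had 32.9, 19.1 and 26.2 in the WT Mid libraries, against 275, 368 and 370.5 in the WT Neg libraries, with a change of -3.67 ± 0.44 (SE), limma adjusted p = 4.3e-06. Kdr, the VEGF receptor of their common precursor, had 145, 83.1 and 91.5 in the WT Mid libraries, against 846, 988 and 1119 in the WT Neg libraries, with a change of -3.23 ± 0.54 (SE), limma adjusted p = 0.00014. All 3 were lower in every WT Mid library than in any WT Neg library, which the naming rule had required for Tal1. Gata1, Runx1 and Lmo2, which also act in blood formation, did not pass the test, and Gata1 had 91.8, 149 and 112 in WT Mid and 50.5, 196 and 37.1 in WT Neg, which overlapped; it was the gene that rose without WT Neg replicate 2 (1.39, limma adjusted p = 0.014). The summed list held 691 to 777 in WT Mid and 2409 to 4425 in WT Neg, with no overlap.

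Hox genes, which set position along the trunk, were lower in WT Mid: of 39 listed genes 22 were tested, 14 fell and 0 rose (median -2.05). Hoxd1 had 1.37, 11.5 and 12.2 in the WT Mid libraries, against 140.4, 168 and 173 in the WT Neg libraries, with a change of -4.46 ± 0.62 (SE), limma adjusted p = 2.2e-05. Hoxd9 had 0, 6.69 and 0.872 in the WT Mid libraries, against 62.8, 63.9 and 68.8 in the WT Neg libraries, with a change of -4.76 ± 0.79 (SE), limma adjusted p = 0.00015. Hoxb5 (-3.85 ± 0.76), Hoxa11 (-3.29 ± 0.74) and Hoxa10 (-3.01 ± 0.85) also fell. Hoxb1 was the least changed of the called genes, with 555, 1253 and 984 in the WT Mid libraries, against 1852, 1224 and 1528 in the WT Neg libraries and a change of -0.78 ± 0.24 (SE), limma adjusted p = 0.019; the call was lost without WT Mid replicate 1 (-0.45, adjusted p = 0.14), WT Neg replicate 1 (0.092) or WT Neg replicate 3 (0.053). The number of Hox genes that fell was 9 of 22 without WT Mid replicate 1 and likewise 9 of 22 without WT Neg replicate 3, and 7 of the 9 that passed a filter at 50. Hoxd1 (-3.65), Hoxd9 (-4.12), Hoxb5 (-3.06) and Hoxa10 (-3.71) were at these values without WT Mid replicate 1, Hoxd9 at -5.59 without WT Mid replicate 2 and Hoxa11 at -3.91 without WT Neg replicate 1. Summed over the list, WT Mid libraries held 914 to 2273 and WT Neg libraries 3905 to 4711.

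Of 11 tested trophoblast and extraembryonic ectoderm genes (13 listed) 7 fell and 3 rose (median -1.64). Over all tested genes 17.4% rose and 15.4% fell. Elf5, a trophoblast regulator, had 1.37, 2.87 and 8.72 in the WT Mid libraries, against 41.9, 71 and 79.7 in the WT Neg libraries, with a change of -3.82 ± 0.80 (SE), limma adjusted p = 0.0012. The tested genes that rose were Rhox6 (2.79), Esx1 (2.69) and Plet1 (1.41), of which Rhox6 had 155, 68.8 and 41 in WT Mid and 4.93, 13.2 and 15.4 in WT Neg; Esx1 was not called without WT Neg replicate 1 (adjusted p = 0.061). Tfap2c, a trophoblast and germ cell factor, had 8.22, 14.3 and 26.2 in the WT Mid libraries, against 163, 186 and 181 in the WT Neg libraries, with a change of -3.50 ± 0.61 (SE), limma adjusted p = 0.00023. The germ cell markers Alpl (-2.02 ± 0.23) and Ifitm3 (-1.47 ± 0.31) fell, making 3 falls of 7 tested germ cell genes (9 listed) with 0 rises; edgeR and DESeq2 each called 2 rises, and limma 1 without any 1 of the WT Mid libraries. Of 12 tested neural ectoderm genes (14 listed) 5 fell and 1 rose; Pax6 had 0 in WT Mid and 16, 12.2 and 7.25 in WT Neg, and Lhx5 changed by -3.48 ± 0.76. The gene that rose was Hesx1 (0.82 ± 0.25 (SE), limma adjusted p = 0.015), whose adjusted p was 0.057 without WT Mid replicate 1 and 0.089 without WT Neg replicate 2, and which was not called with quantile normalisation.

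Epiblast and primitive streak genes did not move as a block. Of 15 tested epiblast genes 6 fell and 3 rose (median -0.27), the rises being close to the 17.4% of all tested genes. Pou5f1, the pluripotency factor Oct4, had 1188, 1432 and 1173 in the WT Mid libraries, against 2376, 2067 and 2308 in the WT Neg libraries, with a change of -0.84 ± 0.11 (SE), limma adjusted p = 7.8e-06. Utf1 (-1.90 ± 0.39), Slc7a3 (-1.91 ± 0.16) and the DNA methyltransferase Dnmt3b (-0.95 ± 0.10) fell too, while the tumour antigen gene Trap1a (2.98 ± 0.33) and Fgf5 (1.61 ± 0.39) rose. Of 19 tested streak and paraxial mesoderm genes 4 rose and 3 fell (median 0.28), shares close to the 17.4% and 15.4% of all tested genes, and 7 rose with array weights. Eomes, a T-box gene of streak and endoderm, had 1275, 1417 and 477 in the WT Mid libraries, against 250.0, 478 and 279.9 in the WT Neg libraries, with a change of 1.56 ± 0.36 (SE), limma adjusted p = 0.0025. Evx1, a posterior streak gene, had 188, 203 and 64.5 in the WT Mid libraries, against 627, 527 and 469 in the WT Neg libraries, with a change of -1.98 ± 0.41 (SE), limma adjusted p = 0.001. Sp5, a Wnt target, had 1245, 1499 and 1348 in the WT Mid libraries, against 978, 711 and 768 in the WT Neg libraries and rose by 0.74 ± 0.14.

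For signalling pathways the counts stand beside the 17.4% of all tested genes that rose and the 15.4% that fell. In the Nodal pathway 6 of 14 tested genes rose and 1 fell (15 listed). Nodal itself, the ligand, had 595, 480.4 and 468 in the WT Mid libraries, against 43.1, 84.2 and 66.1 in the WT Neg libraries, with a change of 3.02 ± 0.20 (SE), limma adjusted p = 2.1e-09. The left-right antagonist Dand5 rose by 2.04 ± 0.32, and Foxh1, the pathway's DNA-binding partner, fell, with -0.48 ± 0.11. In the BMP pathway 5 of 17 rose, among them the inhibitors Chrd and Nog, and 5 fell, among them the ligands Bmp4 and Bmp5 (-1.99 ± 0.46). Bmp2, another ligand, had 799, 541 and 377 in the WT Mid libraries, against 209, 273 and 317 in the WT Neg libraries, with a change of 1.05 ± 0.26 (SE), limma adjusted p = 0.0038. In the FGF pathway 4 of 18 rose and 2 fell, close to the shares of all genes. Fgfr4, a receptor that is prominent in liver, had 529, 337 and 363 in the WT Mid libraries, against 11.1, 14.2 and 20.8 in the WT Neg libraries, with a change of 4.66 ± 0.46 (SE), limma adjusted p = 2.9e-07. All WT Mid libraries were far above all WT Neg libraries. The receptors Fgfr1 (-0.88 ± 0.11) and Fgfr2 (-0.79 ± 0.16) were the 2 that fell, and 4 fell with equal totals, with a replicate block and with array weights.

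In the Wnt pathway 6 of 21 tested genes rose and 4 fell, the falls being close to the share of all genes; 7 fell with quantile normalisation. The receptor Fzd5 changed by 2.25 ± 0.33, and the ligand Wnt8a by -1.28 ± 0.27. In the Hedgehog pathway 4 of 13 rose and 5 fell (14 listed). The ligand Ihh had 247, 119 and 195 in the WT Mid libraries, against 6.16, 8.11 and 9.96 in the WT Neg libraries, with a change of 4.33 ± 0.35 (SE), limma adjusted p = 2.6e-08. The transcription factors Gli2 (-1.44 ± 0.18) and Gli3 (-1.33 ± 0.16) and the receptor component Smo (-0.65 ± 0.12) fell. Shh, the other ligand tested, had risen as well. The rises numbered 2 without WT Mid replicate 3, with quantile normalisation, with equal totals and in a model of the compared groups alone. In the retinoid pathway 5 of 13 rose and 4 fell (14 listed). The retinoic acid-degrading enzyme Cyp26a1 had 3081, 2445 and 2111 in the WT Mid libraries, against 611, 810.2 and 678 in the WT Neg libraries, with a change of 1.85 ± 0.22 (SE), limma adjusted p = 3.7e-06. The retinoic acid-binding protein Crabp2 had 82.2, 194 and 348 in the WT Mid libraries, against 916, 881 and 1039.9 in the WT Neg libraries, with a change of -2.41 ± 0.33 (SE), limma adjusted p = 2e-05. The receptor Rarg changed by -1.50 ± 0.26.

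Genes of DNA replication were modestly lower in WT Mid, with 17 of 22 called and 0 higher (median -0.54). For comparison with this and the next lists, 15.4% of all tested genes were lower and 17.4% higher. The helicase subunit Mcm4 had 3324, 3810.1 and 5034 in the WT Mid libraries, against 6460.3, 6861 and 6833 in the WT Neg libraries, with a change of -0.75 ± 0.15 (SE), limma adjusted p = 0.00094. Pcna, the polymerase clamp, had 2719, 2901 and 2975 in the WT Mid libraries, against 4195, 4155 and 4014 in the WT Neg libraries, with a change of -0.53 ± 0.08 (SE), limma adjusted p = 5e-05. Of 20 mitosis genes 13 fell and 0 rose (median -0.42), among them Bub1 (-0.67 ± 0.15) and Top2a (-0.37 ± 0.09), and 8 fell without WT Mid replicate 1 and likewise 8 without WT Neg replicate 3; 1 rose without WT Mid replicate 3, with a replicate block and with array weights. Of 20 glycolysis and hypoxia genes 9 fell and 1 rose (median -0.37), and 15 fell with array weights; 2 rose with array weights, with a replicate block, by DESeq2 and without WT Mid replicate 3 or WT Neg replicate 2. Aldoa, a glycolytic enzyme, had 11235, 11894 and 13816 in the WT Mid libraries, against 15231, 18520.0 and 19777 in the WT Neg libraries, with a change of -0.53 ± 0.10 (SE), limma adjusted p = 0.0004. The gene that rose was P4ha1, a collagen hydroxylase, with 6014, 2096 and 3186 in the WT Mid libraries, against 905, 1031 and 1156 in the WT Neg libraries and a change of 1.74 ± 0.24 (SE), limma adjusted p = 2.3e-05. Chaperones of the endoplasmic reticulum and unfolded protein response genes rose in 10 of 19 with 0 falls, by little (median 0.45), and 1 fell with array weights. Calr, a calcium-binding chaperone, had 12965, 8113 and 8490.1 in the WT Mid libraries, against 5280.3, 5292 and 5159 in the WT Neg libraries, with a change of 0.88 ± 0.12 (SE), limma adjusted p = 1.7e-05.

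Cholesterol synthesis genes did not separate the gates. None of the 20 was called by limma or edgeR, 1 had an unadjusted p under 0.05 by limma, and DESeq2 called 1 higher; the median was -0.14. Array weights, and likewise leaving out WT Mid replicate 3, called 1 higher and 3 lower, and 1 was called higher with a pseudocount of 5, a filter at 50, the compared groups alone, or without WT Mid replicate 2 or WT Neg replicate 3. Hmgcs1, an early enzyme of the pathway, had 1391, 1851 and 3737 in the WT Mid libraries, against 1856, 1929.6 and 4480.1 in the WT Neg libraries, so that the gates overlapped and replicate 3 was the highest in both.

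Of 19 tested imprinted genes 4 rose and 5 fell, not far from the 17.4% and 15.4% of all tested genes; 7 rose with array weights and 3 fell without WT Mid replicate 2 or WT Neg replicate 3. Phlda2, a brake on placental growth, had 1845, 1799 and 2676 in the WT Mid libraries, against 10468, 8693 and 10422 in the WT Neg libraries, with a change of -2.25 ± 0.22 (SE), limma adjusted p = 2.3e-07. The non-coding RNA H19 had 7565, 7974 and 4181 in the WT Mid libraries, against 1324, 1922 and 1510.0 in the WT Neg libraries, with a change of 2.01 ± 0.37 (SE), limma adjusted p = 0.00036, and Igf2, its neighbour, had 1963, 2319 and 1809.8 in WT Mid and 1593, 2185 and 1911 in WT Neg, overlapping. Xist, the RNA of the inactive X chromosome, had 8087, 4667 and 1829 in the WT Mid libraries, against 2956, 2884 and 1459 in the WT Neg libraries, overlapping, with replicate 1 the highest and replicate 3 the lowest of each gate. Of 14 genes that respond to dissociation and stress 10 rose and 0 fell (median 1.26). Fosb, an immediate-early factor, had 360.3, 179.6 and 95.9 in the WT Mid libraries, against 13.5, 31.4 and 22.6 in the WT Neg libraries, with a change of 3.05 ± 0.44 (SE), limma adjusted p = 3.1e-05. Egr1, another, had 634, 405 and 269 in the WT Mid libraries, against 45.6, 148 and 102 in the WT Neg libraries, with a change of 2.20 ± 0.41 (SE), limma adjusted p = 0.00047. Both were highest in WT Mid replicate 1, and their part in the other results was not tested.

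The same gates of ΔHx embryos were set beside those of WT embryos. Between ΔHx Mid and ΔHx Neg 34.3% of the tested genes were called, 17.9% higher and 16.5% lower. In ΔHx Mid 17 of 19 plasma protein genes were higher than in ΔHx Neg, and 17 in WT Mid than in WT Neg, with a median of 4.50 in ΔHx and 4.23 in WT. Hnf4a had 556, 582 and 834 in ΔHx Mid and 1.12, 14.9 and 23.7 in ΔHx Neg (6.10 ± 0.67 (SE), limma adjusted p = 1.5e-06). The largest increases in ΔHx Mid were Hnf4a, Slc2a2 (5.82), Ambp (5.74), the peptidase Enpep (5.66), Apoa4 (5.66) and the phosphodiesterase Pde6c (5.66). The largest decreases were Tbx4 (-6.13), Tal1 (-5.95), Tdo2 (-5.92), the BMP-family ligand Gdf6 (-5.71), Hand1 (-5.43) and Hbb-bh1 (-5.42). Hnf4a was at 5.03, Slc2a2 at 5.15 and Apoa4 at 4.81 without ΔHx Neg replicate 1, and Hnf4a at 6.80, Slc2a2 at 6.95 and Enpep at 6.68 without ΔHx Neg replicate 3. Hbb-bh1 was at -6.13 without ΔHx Mid replicate 1 and -4.24 without ΔHx Mid replicate 3.

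The difference between the WT and ΔHx gate effects, which shares the WT libraries with the main comparison, was called for 1 gene of 14711, or 0.0068%, higher in WT. At an unadjusted limma p under 0.05 there were 636 genes of 14711, below the share of 0.05 that would fall there without any difference. With adjustment edgeR called 0 and DESeq2 19. The gene was Slc6a2, which among these WT and ΔHx gates reached the filter's value of 10 in WT Mid alone. It had 1.86, 0 and 1.14 in the ΔHx Mid libraries and 2.23, 3.73 and 3.10 in the ΔHx Neg libraries, all at or near 0; the difference was 7.62 ± 1.07 (SE), limma adjusted p = 0.013. The call was lost with a pseudocount of 0.5 (adjusted p = 0.13), a filter at 50 (0.099), edgeR (0.12), and without ΔHx Mid replicate 2 (0.065), ΔHx Neg replicate 2 (0.073), ΔHx Neg replicate 3 (0.063) or WT Neg replicate 3 (0.052). Without WT Neg replicate 3 the difference was 6.93. None of the tested genes of the 35 lists was called in this difference. Among them the largest by size in the parietal list was P4ha2 (3.39 ± 0.76, adjusted p = 0.37), with 124, 86.8 and 152 in ΔHx Mid and 296, 204 and 213 in ΔHx Neg. Nid1 differed by 3.38 ± 0.64 (adjusted p = 0.17), with 303, 496 and 512 in ΔHx Mid and 154, 133 and 182 in ΔHx Neg. In the parietal list 11 genes were higher in ΔHx Mid than in ΔHx Neg (median 1.12), against 18 between the WT gates (median 2.81, and 2.31 without WT Mid replicate 1). Shh had 27, 38 and 54.7 in ΔHx Mid and 45.8, 54.1 and 20.6 in ΔHx Neg, and its difference of 4.89 ± 0.88 did not pass the test (adjusted p = 0.17).

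**Figure D5:**
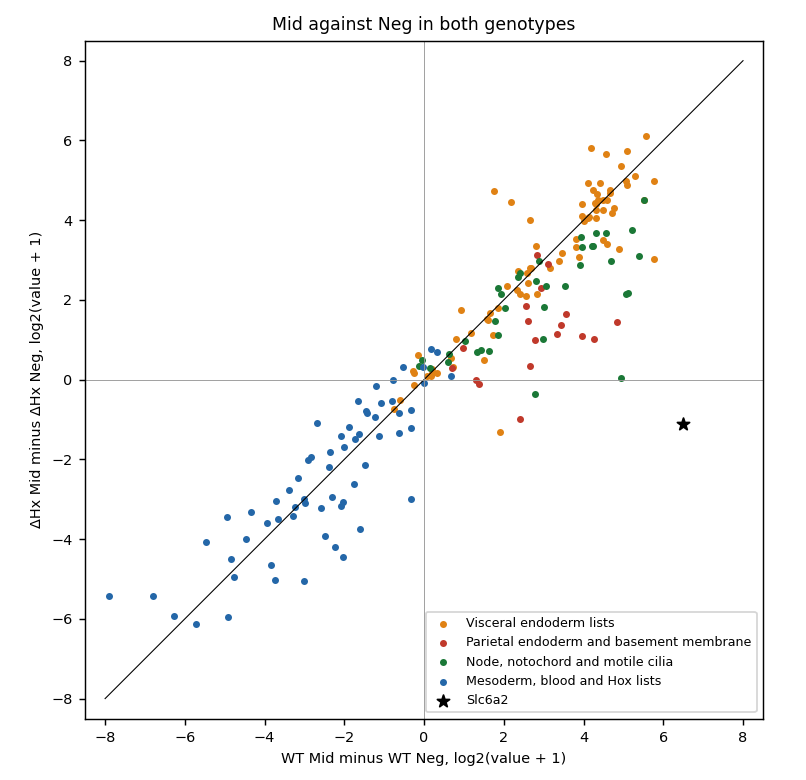
Change between the Mid and Neg gates on the log2(value + 1) scale in WT (x axis) and in ΔHx (y axis) for the tested genes of 4 groups of lists and for Slc6a2 (star), with the line of equality. All but 1 of the 18 parietal genes lie below the line, but none was called in the difference between genotypes. The median of that difference over all tested genes was 0.0077. In the WT Mid gate 15 of the 18 were highest in replicate 1. Slc6a2 lies farthest below the line, at 6.50 in WT and -1.12 in ΔHx.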

How the data were processed

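RNA of sorted cells was measured with SMART-Seq2 in 18 libraries of 6 groups, read from 1 end. Per the submitters' processing notes, STAR 2.5.2a, HTSeq 0.6.1, DESeq and DESeq2 were used with mm10; for the gene annotation the sources used here name none. The deposited values are a signal: the authors scaled each library's gene read counts by its size factor. All 440964 values divided by the value of 1 read were whole within 1e-06 reads, which recovered the reads. The table has 24503 lines, of which 5 are the counter's own and were left out of totals and tests. In the 6 libraries, reads without a feature equalled 7.17% to 12.1%, ambiguous reads 0.495% to 0.756% and reads without a unique place 38.4% to 41.3% of all reads the counter listed. SMART-Seq2 does not mark strand, so reads of overlapping and antisense genes cannot be told apart.

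The 14711 genes that reached 10 in 3 or more of the 18 libraries were tested on log2(value + 1) with limma 3.58.1 in R 4.3.3, with 6 group means, a variance trend and no replicate block; all tests were two-sided, with Benjamini-Hochberg adjustment at 0.05. This fit shares 1 estimate of the spread over all groups. A count test with edgeR 4.0.16 on the recovered reads called 2613 genes higher and 2104 lower in WT Mid, and DESeq2 1.42.0 called 2811 and 2374. Alternatives changed the pseudocount (0.5 or 5), the filter (none, or 50), the scaling, the samples fitted, the weights, the tool, or left out 1 library. Where a group had no read, bounds took 3 reads per library as the floor, which covers counting error only.

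The members and the 35 gene lists were chosen with earlier results of these data known. Named genes were Foxa2, the 12 largest called increases and 12 largest decreases with a mean of at least 20 and no overlap between the groups, without predicted names, up to 5 called genes of each list and 6 per direction in the other comparisons. Other genes named, such as Sox17, Gata4, Afp, Apoe, Lrp2, Tfrc, Kdr, Etv2, Hoxb1, Pou5f1, Foxd4 and all genes that did not pass, were chosen after their values were seen. Gene positions came from GENCODE's mm10 annotation for 14268 tested genes, and start windows from RefSeq on GRCm38.p6. No columns of the table were without a sample. Single results for a few list members are not reported here; the list counts include them.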

Additional observations from a re-analysis of the deposited data

Results flagged for a closer look

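Slc6a2, the noradrenaline transporter gene, was picked out because its difference between the Mid and Neg gates differed between WT and ΔHx embryos by a test of that difference: the WT change minus the ΔHx change was 7.62 ± 1.07 (SE) on the log2(value + 1) scale, limma adjusted p = 0.013. It had 482, 165 and 160.4 normalised counts in the WT Mid libraries, against 2.46, 4.06 and 0 in the WT Neg libraries. In ΔHx embryos it had 1.86, 0 and 1.14 in the Mid libraries, against 2.23, 3.73 and 3.10 in the Neg libraries. All WT Mid libraries therefore lay above every other library given here, with WT Mid replicate 1 the highest. In the WT High libraries it had 2.40, 0.910 and 0. Among the libraries given here only those of WT Mid reached the filter's value of 10. The gene was thus tested through the group where it was high. Over all settings the difference lay between 5.53 and 8.60, and its adjusted p between 3.6e-06 with DESeq2 and 0.13 with a pseudocount of 0.5.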

How the results depend on the processing

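A limma test of whether a change exceeded 2-fold called 578 higher and 89 lower genes in WT Mid against WT Neg. It called 284 and 213 in WT High against WT Mid, and 465 and 84 in ΔHx Mid against ΔHx Neg. Among genes called by the main test, 1530 were higher and 614 lower in WT Mid by over 1 log2 unit, which is 2-fold. Array weights called 3457 genes lower in WT Mid than in WT Neg. Genes lower in WT High than in WT Mid numbered 983 with equal totals and 1090 in a model of the compared groups alone. The difference between genotypes was called higher in WT for 0 genes with a pseudocount of 0.5, 2 with one of 5, 0 with a filter at 50, 5 with array weights, 0 with edgeR and 19 with DESeq2, and for 0 to 24 when 1 library was left out (24 without WT Mid replicate 2, 9 without WT Mid replicate 1, 5 without WT Neg replicate 1, and 0 without ΔHx Mid replicate 2, ΔHx Neg replicate 2, ΔHx Neg replicate 3 or WT Neg replicate 3); array weights called 1 gene lower. The cause of these moves was not tested. Leaving out 1 library gave 2151 to 2668 higher and 1600 to 2403 lower genes in WT Mid against WT Neg, and 2974 of the 4834 calls held in every such fit. 

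Among the 216 genes chosen by the naming rule or named beside it, directions turned for 3, none of them called between WT Mid and WT Neg; uncalled genes outside these were not counted. Gata6 was at -0.30 without WT Mid replicate 1 and up to 0.79 without WT Mid replicate 3. Kirrel3 was at -0.084 with quantile normalisation, -0.18 without WT Mid replicate 2, -0.069 without WT Mid replicate 3 and -0.55 without WT Neg replicate 3, and up to 0.79 without WT Mid replicate 1. Ccdc153 was at 0.50 with array weights, 0.0039 with DESeq2, 0.098 without WT Mid replicate 1 or 3 and 0.32 without WT Neg replicate 1, and down to -0.39 without WT Mid replicate 2.

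Libraries of the 2 gates share replicate numbers. Deviations from the group means of same-numbered libraries correlated across genes at 0.0548, 0.0485 and 0.160, so the numbers were not taken to pair the libraries, although each library correlated best with its own number. With a replicate block, 2911 genes were higher and 2604 lower in WT Mid, and the genotype difference was called for 6 higher genes and 1 lower gene. Among cholesterol genes the block called 1 higher and 2 lower.

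Depth limited genes near 0: where a group had no read, only a bound can be given.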

Other observations

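The 3 gates ordered other gene groups differently. Of all tested genes 12.1% were higher and 12.4% lower in WT High than in WT Mid. Of 20 lysosomal genes, 17 were lower and 1 higher in WT High than in WT Mid by limma, and Ctsh had 557, 1184 and 644 in WT High and 3041, 3980.1 and 3994 in WT Mid. Of 15 tested endocytic genes, 9 were lower in WT High and 0 higher; Cubn had 236, 881 and 278 in WT High and 7595, 9489 and 8437 in WT Mid. Both genes were thus higher in every WT Mid library than in any WT High library. Of 13 genes of the anterior visceral endoderm and head organiser, 6 were higher in WT High and 0 lower; Cer1 had 11348, 10040.2 and 12910.0 in WT High and 3535, 2626 and 2772 in WT Mid (1.95 ± 0.22 (SE), limma adjusted p = 3.5e-06). Of 28 epithelial genes, 11 were higher in WT High and 3 lower, the latter close to the share of all genes. Of 15 epiblast genes 9 were lower and 0 higher. Pou5f1 had 831, 826 and 739 in WT High and 1188, 1432 and 1173 in WT Mid.

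Of the 2267 genes that were lower in WT Mid than in WT Neg, 363 were lower again in WT High than in WT Mid, 229 were higher in WT High and 1675 were not called between them. Of 22 tested Hox genes, 9 were lower in WT High than in WT Mid, and the summed list held 195 to 278 in WT High and 914 to 2273 in WT Mid.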
